A study of Homo sapiens with 4 samples.

Results

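DNA replication and nucleotide synthesis genes are a set of 43 genes chosen by name for their known roles, with earlier results of these data known. All 43 were among the 16834 genes of the deposited expression table. They were grouped by role into origin licensing (10 genes), origin firing and fork (8), polymerases and primase (6), sliding clamp and clamp loader (5), flap removal, ligation and single-stranded DNA binding (5), nucleotide supply (4), chromatin copying (3) and the E2F activators E2F1 and E2F2 (2). RNA of cells labelled MIA PaCa-2, an established line of pancreatic ductal adenocarcinoma (PDAC), was sequenced from untreated control cells, from cells given 1 µM neobractatin (NBT), a natural compound of Garcinia bracteata, from cells given 5 µM trametinib, which inhibits the MEK kinases, and from cells given both agents at these doses. Treatment lasted 12 h, the genotype of all cells was given as wild type, and each of the 4 conditions is 1 library. The study asked how NBT and trametinib act together. With 1 library per condition, variation between cultures was not measured, no value has a replicate check, and no p-value is given.

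A cell copies its genome once per cycle. In G1 phase the origin recognition complex, CDC6 and CDT1 load the ring-shaped MCM2-7 helicase onto origins, a step called licensing. In S phase CDC45 and the GINS complex turn the loaded rings into active helicases, polymerases extend primers held by the PCNA clamp, and ribonucleotide reductase, thymidylate synthase and thymidine kinase supply nucleotides. Many of these genes are known targets of E2F transcription factors, which the retinoblastoma protein holds inactive until cyclin-dependent kinases phosphorylate it, and growth factor signaling through MEK and ERK feeds into that switch by way of D-type cyclins.

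The libraries held from 18776254 (control) to 19614826 (combination) estimated reads. A list of 10 genes known as output of the MAPK pathway served as a check of the labels, and all 10 passed the limits given below as lower in the trametinib and in the combination library, with median log2 fold changes against control of -3.27 and -2.57, whereas the median was 0.20 with NBT. The expression of other genes went against the label of the cell line, since MIA PaCa-2 is known for the homozygous loss of CDKN2A and MTAP, and for abundant vimentin with little E-cadherin. CDKN2A was read at 263.72, 248.78, 341.89 and 290.3 TPM (a level scaled to transcript length and library sum) in the control, NBT, trametinib and combination libraries, and MTAP at 13.16 to 19.9 TPM. The labels' entry for the cell line also differs among the libraries, while their titles agree. VIM was at 11.48 to 26.39 TPM and CDH1 at 51.21 to 86.91 TPM. These levels were of the same order in all 4 libraries, so comparisons among the libraries are given as labelled, but the cells are referred to as labelled MIA PaCa-2 and not as verified. Of the epithelial markers, 5 of 6 listed genes were in the table and summed to 7274.3, 6110.41, 3563.57 and 2765.44 TPM in the same library order. Most of the sum was KRT8 (3799.23 TPM in the control, 2216.2 TPM with trametinib) and KRT18 (3141.54 and 1047.93 TPM). EPCAM (242.36 and 209.75 TPM) and CDH1 (85.43 and 86.91 TPM) changed less, and KRT7 was low, at 2.25 to 5.74 TPM over the libraries. The part of these markers in the results was not tested. Fibroblast markers (3 of 5 listed genes in the table) summed to 0.48 to 1.88 TPM, with COL1A2 and LUM at 0 reads in the control library. Leukocyte markers (3 of 4) summed to 0.76 to 5.21 TPM. CD3E, a T cell gene, had 0 reads in the control and NBT libraries and 55 and 29 in the trametinib and combination libraries.

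Taken as a set, the genes took a smaller share of all reads with each treatment and the smallest with both. They held 0.529% of the estimated reads in the control library, 0.471% with trametinib, 0.426% with NBT and 0.319% with the combination. Their median level was 55.23 TPM in the control, 52.36 TPM with trametinib, 48.04 TPM with NBT and 40.3 TPM with the combination. Scaled to library sums, 38 of the 43 genes had their lowest level in the combination library, and 29 had their highest in the control. Such an order was not counted over all genes, so how far these numbers stand out is not known. Of the other genes, 10 were highest with trametinib, 3 with NBT, and CDC6 alone with the combination. The 10 became 6 with TMM scaling, where CHAF1B, MCM6, PCNA and POLA1 were highest in the control, and in TPM the combination was also the highest for ORC6 (57.35 TPM, beside 56.16 TPM with NBT). In bulk RNA, fewer cells in S phase and less RNA of these genes per cell cannot be told apart.

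**Figure D1:**
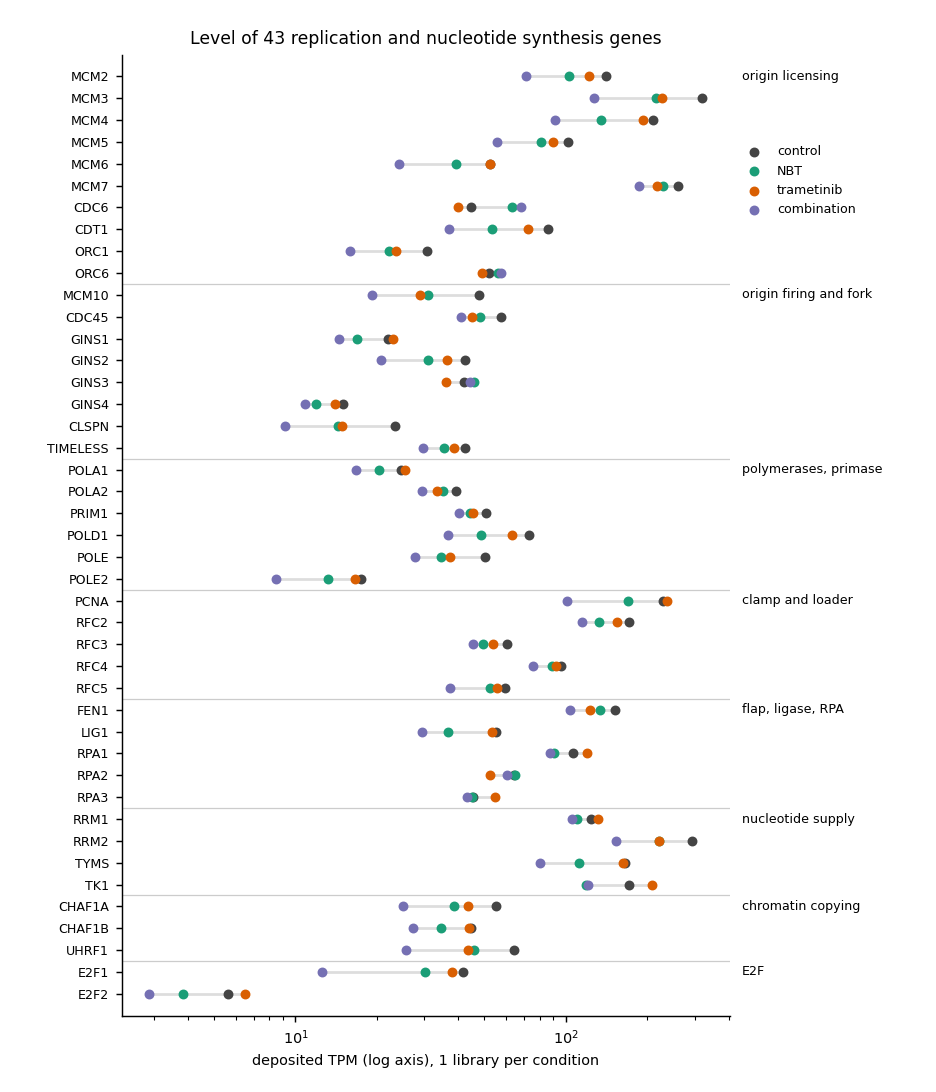
Level of each of the 43 genes in deposited TPM (horizontal log axis) in the control, NBT, trametinib and combination libraries, 1 point per library, grouped by role. The combination point is leftmost for most genes, whereas for CDC6 it is the rightmost, at 68.14 TPM against 44.59 TPM in the control.

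Log2 fold changes were computed from read counts scaled to library sums after adding 0.5 reads. Each has a 95% Clopper-Pearson interval that covers counting error of reads only. It holds no variation between cultures, and none from the PCR that copies molecules before they are read. A gene was called where an exact two-sided binomial test of its counts, Benjamini-Hochberg adjusted over all genes tested, gave at most 0.05 and the absolute log2 fold change was at least 1, the limits named in the study's methods, or at least 0.5 as a smaller limit. This test compares libraries and not conditions. MCM7, ORC1, GINS2, RFC5, RPA3, TYMS, CHAF1A and UHRF1 overlap the span of another gene in the table, and as strand was not stated, reads in the overlaps cannot be assigned with certainty.

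The combination library differed most from the control. Of the 43 genes, 12 were called as lower and 0 as higher at the limit of 1, where 3.69% of the 16229 genes tested were called as lower and 4.73% as higher. At the limit of 0.5, 27 were lower and CDC6 was higher, beside 10.2% and 12.5% of all genes tested. The counting interval lay below 0 for 38 genes (25.2% of all genes tested, and 35.9% of those with at least 100 reads in either library, as all 43 had) and above 0 for CDC6 and ORC6 (27.9% and 37.7%), of which ORC6 was not above 0 with TMM scaling. The median log2 fold change was -0.62, which is a median ratio of 0.651, while that of all genes tested was 0.05. The 12 genes were E2F1, MCM3, UHRF1, MCM10, CLSPN, CDT1, MCM4, PCNA, CHAF1A, MCM6, TYMS and POLE2, and they came from each of the 8 roles except flap removal, ligation and single-stranded DNA binding. The number rests on counting error alone: with an assumed coefficient of variation between cultures of 0.2, a negative binomial test called 2 of them, E2F1 and MCM3, and with 0.4 it called 0.

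**Figure D2:**
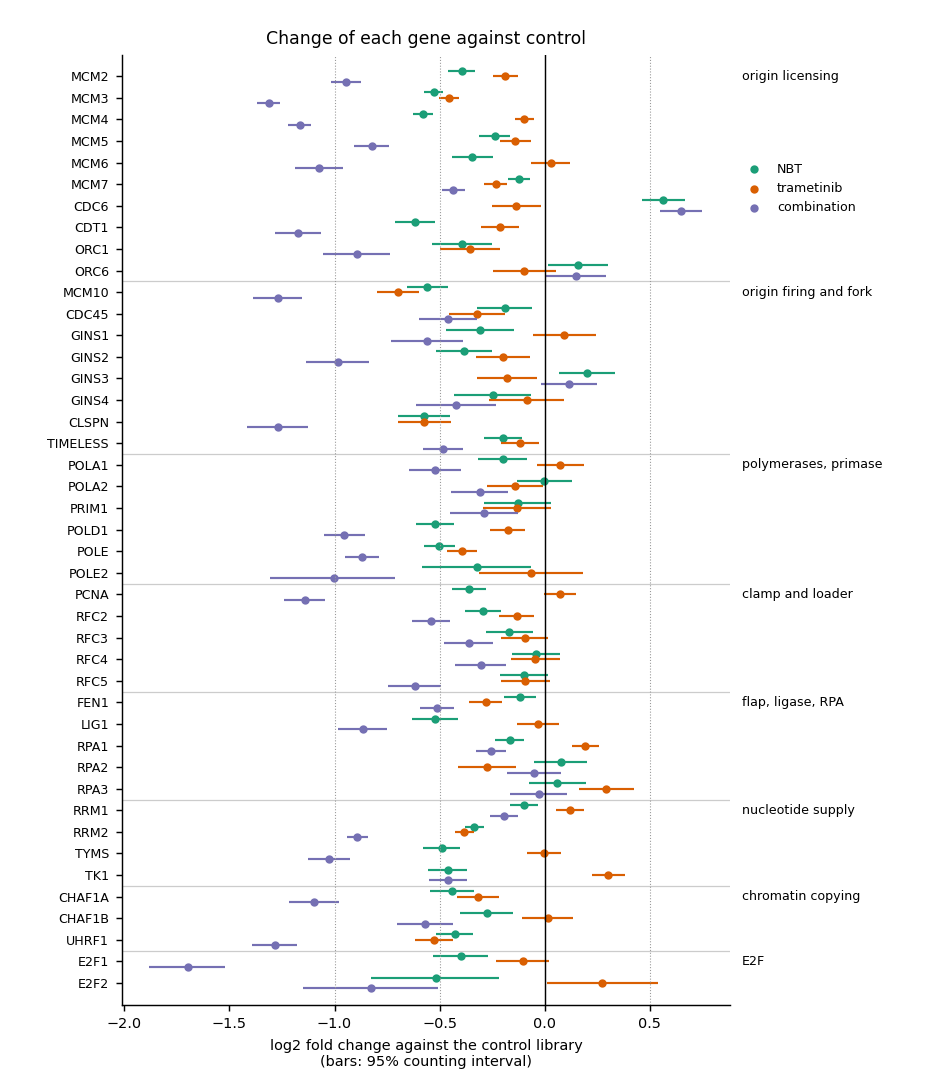
Log2 fold change of each gene against the control library (horizontal axis) for NBT, trametinib and the combination, with 95% counting intervals as bars and dotted lines at -1, -0.5 and 0.5. The combination point lies left of both single-drug points for most genes, the farthest for E2F1 at -1.70, while CDC6 lies to the right of 0 with NBT and with the combination.

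Promoter sequences from RefSeq (build GRCh38.p14, 250 bases before to 50 bases after a transcription start) were at hand for 38 of the genes, in 48 windows, and not for GINS4, MCM4, MCM5, RPA2 and RPA3. They were searched on both strands for 4 forms of the E2F motif, TTTCCCGC, TTTCGCGC, TTTGCCGC and TTTGGCGC, and for the CCAAT box, CCAAT. An E2F motif was found in 22 of the 48 windows (45.8%), beside 3.31% of all 35116 windows, and a CCAAT box in 30 windows (62.5%), beside 34.6%. Both motifs occurred in windows of 12 of the 38 genes and neither in those of 5, and 1 E2F match overlapped a CCAAT match. A match describes letters in a window and not a bound factor. The 250 bases before the start are shown, 5′ to 3′ on the strand of the gene, for the genes with the largest fall (E2F1) and rise (CDC6) with the combination, the lowest (MCM10) and highest (TK1) value with trametinib, and for PCNA and MCM6, which stood lowest after E2F1 in the departure from additivity described further on. Capitals mark E2F motifs and CCAAT boxes on either strand.
E2F1: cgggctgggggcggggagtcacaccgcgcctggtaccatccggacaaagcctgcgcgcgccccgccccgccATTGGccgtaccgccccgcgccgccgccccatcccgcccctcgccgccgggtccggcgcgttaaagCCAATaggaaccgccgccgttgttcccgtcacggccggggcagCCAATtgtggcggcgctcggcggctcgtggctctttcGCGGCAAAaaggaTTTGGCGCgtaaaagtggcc
PCNA: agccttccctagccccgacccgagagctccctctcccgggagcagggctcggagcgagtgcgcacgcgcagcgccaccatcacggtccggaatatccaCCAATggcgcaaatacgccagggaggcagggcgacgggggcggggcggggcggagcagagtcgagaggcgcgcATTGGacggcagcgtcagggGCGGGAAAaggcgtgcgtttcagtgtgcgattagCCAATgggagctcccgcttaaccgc
MCM6: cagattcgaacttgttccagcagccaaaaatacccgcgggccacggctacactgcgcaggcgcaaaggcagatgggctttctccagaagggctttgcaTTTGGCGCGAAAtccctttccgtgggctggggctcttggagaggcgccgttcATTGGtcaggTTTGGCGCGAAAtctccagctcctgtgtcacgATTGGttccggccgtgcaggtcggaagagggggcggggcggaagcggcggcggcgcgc
CDC6: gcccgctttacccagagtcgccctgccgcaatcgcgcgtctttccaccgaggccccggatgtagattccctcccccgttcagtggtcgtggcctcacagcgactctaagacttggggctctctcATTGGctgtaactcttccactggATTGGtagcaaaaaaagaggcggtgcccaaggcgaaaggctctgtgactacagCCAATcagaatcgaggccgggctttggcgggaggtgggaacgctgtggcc
MCM10: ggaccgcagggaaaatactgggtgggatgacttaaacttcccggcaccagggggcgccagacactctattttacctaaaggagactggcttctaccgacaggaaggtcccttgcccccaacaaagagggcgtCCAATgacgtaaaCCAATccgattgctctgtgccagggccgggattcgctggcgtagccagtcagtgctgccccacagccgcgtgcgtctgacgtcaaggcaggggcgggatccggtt
TK1: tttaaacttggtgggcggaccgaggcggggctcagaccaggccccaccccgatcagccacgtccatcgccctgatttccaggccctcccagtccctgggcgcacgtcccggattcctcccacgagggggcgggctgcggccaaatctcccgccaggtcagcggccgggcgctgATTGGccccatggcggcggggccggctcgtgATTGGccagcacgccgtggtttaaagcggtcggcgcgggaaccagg
The stretches are chr20:33686386-33686635 on the minus strand for E2F1, chr20:5126623-5126872 on the minus strand for PCNA, chr2:135876444-135876693 on the minus strand for MCM6, chr17:40287629-40287878 on the plus strand for CDC6, chr10:13161308-13161557 on the plus strand for MCM10 and chr17:78187053-78187302 on the minus strand for TK1. E2F1 has 2 E2F motifs and 3 CCAAT boxes in this stretch, PCNA 1 and 3, and MCM6 4 and 2, where each of the 12-base runs of capitals in MCM6 holds a pair of overlapping E2F matches on opposite strands. No E2F motif of these forms lies in the printed stretches of CDC6, MCM10 and TK1. PCNA and TK1 have 2 windows each, of which 1 is shown. In CDC6 a TTTGGCGC begins 8 bases downstream of the start, outside the stretch. The 21 genes with an E2F motif in any window had a median log2 fold change of -0.95 with the combination, with values from -1.70 to 0.65, and the 17 genes without one had a median of -0.51, with values from -1.27 to 0.15. Over all genes with a window and at least 50 reads in a library the medians were -0.04 with the motif (643 genes) and 0.04 without it (8736). With the CCAAT box the median of the set was -0.74 (24 genes), and without it -0.70 (14 genes).

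E2F1, the activator named for driving S phase entry, had the largest fall. Its reads numbered 1061 in control cells, 832 after NBT, 996 after trametinib and 341 after both, and its levels were 41.65, 30.13, 38.06 and 12.48 TPM. The combination stood far below the other 3 libraries, at a ratio to control of 0.308 (log2 fold change -1.70, interval from -1.88 to -1.52). Trametinib alone gave -0.10 with an interval that holds 0 (from -0.23 to 0.02), and NBT alone -0.40 (from -0.53 to -0.27). E2F2, a related activator, was the lowest of the set in every library, at 5.65, 3.83, 6.51 and 2.88 TPM. It was read 219, 158, 267 and 129 times, so its intervals are wide, and its log2 fold change with the combination was -0.82 (from -1.15 to -0.51). It was highest with trametinib (0.27, from 0.01 to 0.54, an interval that holds 0 with TMM scaling).

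Among the licensing genes, the 6 subunits of the MCM2-7 helicase were all lower with the combination, by unequal amounts. MCM3 was the most abundant of the 43 genes in the control, with 319.95 TPM, and stood at 215.15 TPM with NBT, 226.67 TPM with trametinib and 126.97 TPM with the combination. Its counts of 8888, 6378, 6542 and 3736 reads gave log2 fold changes of -0.53, -0.46 and -1.31 for the 3 treatments, so it was lower by like amounts with either drug and lowest with both. MCM4 followed another course, at 210.37, 134.57, 193.17 and 91.24 TPM, since it was close to the control with trametinib (-0.10) and lower with NBT (-0.58) and with the combination (-1.17, from -1.22 to -1.11). MCM6 was read 1869, 1524, 1925 and 928 times. With trametinib it lay within counting error of the control (0.03, from -0.06 to 0.12, and -0.05 with TMM scaling), NBT gave -0.34, and the combination gave -1.07 (from -1.19 to -0.96).

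MCM2 and MCM5 stood between these values, with log2 fold changes of -0.95 and -0.82 in the combination. MCM7 was the least changed subunit, at 259.7, 228.07, 216.92 and 186.68 TPM and -0.44 (from -0.49 to -0.38) with the combination. As the 6 subunits form a ring with 1 copy of each, their relative levels were also read. MCM6 was the lowest subunit in TPM in all 4 libraries. The ratio of the highest to the lowest subunit was 6.12 in the control (MCM3 over MCM6) and 7.71 with the combination (MCM7 over MCM6), and the summed level of the 6 went from 1084.86 to 556.06 TPM.

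The loading factors split. CDT1, which brings MCM2-7 to origins, had 2163 reads in control cells, 1460 after NBT, 1882 after trametinib and 1002 after both drugs. Its log2 fold change was -0.62 with NBT, the largest fall of the set under that drug, and -1.17 (from -1.28 to -1.06) with the combination. CDC6, its partner in loading, went the other way. It had 1299 reads in control cells, 1986 after NBT, 1194 after trametinib and 2128 after both drugs, so both libraries with NBT lay above both without it. Its log2 fold change was 0.56 (from 0.46 to 0.66) for NBT alone, 0.65 (from 0.55 to 0.75) for the combination and -0.13 (from -0.25 to -0.02) for trametinib alone. ORC1, the largest subunit of the origin recognition complex, stood at -0.39, -0.35 and -0.89 for NBT, trametinib and the combination, while ORC6, its smallest subunit, stood at 0.16, -0.10 and 0.15.

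Of the 8 origin firing and fork genes, MCM10 and CLSPN were called as lower with the combination at the limit of 1. MCM10, which helps to activate the helicase, had 2063, 1449, 1283 and 893 reads in the order of control, NBT, trametinib and combination. Its log2 fold change of -0.70 (from -0.80 to -0.60) was the largest fall of the set with trametinib, and with the combination it was -1.27 (from -1.39 to -1.16). CLSPN, which encodes claspin, an adaptor of the replication checkpoint at the fork, stood at 1285, 893, 872 and 556 reads. Both single drugs gave the same log2 fold change of -0.57, and the combination gave -1.27 (from -1.42 to -1.13).

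The GINS complex, 4 subunits that bind the helicase together with CDC45, did not move as a block. GINS2 was at -0.98 (from -1.14 to -0.83) with the combination, GINS1 at -0.56 and GINS4 at -0.42. GINS3 had 856, 1019, 762 and 968 reads, and its value of 0.11 with the combination had an interval from -0.02 to 0.25 that holds 0. GINS2 and GINS3 had like levels in the control (42.23 and 42.01 TPM) and stood at 20.79 and 44.12 TPM with the combination. CDC45 was at -0.46 and TIMELESS, of the fork protection complex, at -0.48 with the combination.

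All 6 polymerase and primase genes were lower with the combination beyond counting error. POLE2, the second subunit of polymerase epsilon, was the most changed and the least read, with 277, 229, 267 and 144 reads and a value of -1.0 (from -1.31 to -0.71), which sits on the limit of 1. POLD1 and POLE, the catalytic subunits of the lagging and leading strand polymerases, stood at -0.95 and -0.87. POLD1 was at -0.52 with NBT and -0.18 with trametinib, and POLE at -0.50 and -0.39. POLA1, the catalytic subunit of polymerase alpha, was at -0.52, POLA2 at -0.31 and PRIM1, the primase that makes the RNA primer, at -0.29.

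PCNA, the ring that holds polymerases to DNA, had 2706 reads in control cells, 2182 after NBT, 2874 after trametinib and 1281 after both drugs. The combination library was the lowest by a wide margin, at 100.68 TPM against 228.45 TPM in the control, a log2 fold change of -1.14 (from -1.24 to -1.05). Trametinib alone gave 0.07, with an interval from just below 0 to 0.15. The clamp loader subunits, which open PCNA onto DNA, were less changed. RFC5 stood at -0.62, RFC2 at -0.54, RFC3 at -0.36 and RFC4 at -0.30 with the combination.

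Genes for finishing the lagging strand and for coating single-stranded DNA had, at -0.26, the median nearest 0 of the 8 roles with the combination. LIG1, the ligase that joins Okazaki fragments, was at -0.87 (from -0.98 to -0.75) with the combination and -0.52 with NBT, while trametinib gave -0.03 with an interval that holds 0. FEN1, the flap endonuclease, was at -0.51. The 3 subunits of RPA were at -0.26 (RPA1), -0.05 (RPA2) and -0.03 (RPA3), and the last pair had intervals that hold 0. RPA1 had 3524, 3249, 4065 and 3084 reads, and RPA3 861, 929, 1065 and 881, so for both the trametinib library was the highest.

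The nucleotide supply genes showed an unlike response to trametinib. TYMS, which makes dTMP, had 2452 reads in control cells, 1807 after NBT, 2466 after trametinib and 1257 after both drugs, hence -0.49, -0.01 and -1.03 (from -1.13 to -0.93) for the 3 treatments. TK1, the S phase thymidine kinase, had 2303, 1730, 2867 and 1747 reads. It was higher with trametinib (0.30, from 0.22 to 0.38, the highest value of the set under that drug) and stood at -0.46 both with NBT and with the combination. RRM2, the regulated small subunit of ribonucleotide reductase, had 9063, 7436, 7019 and 5102 reads and was at -0.34, -0.38 and -0.89, while RRM1, the large subunit, was at -0.10, 0.12 and -0.19. The ratio of RRM2 to RRM1 in TPM was 2.37 in control cells, 2.01 after NBT, 1.67 after trametinib and 1.46 after both.

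Genes that copy chromatin behind the fork were lower with the combination as well. UHRF1, which guides maintenance methylation of new DNA, had 2401, 1848, 1681 and 1030 reads and stood at -0.43, -0.53 and -1.28 (from -1.39 to -1.18) for the 3 treatments. CHAF1A and CHAF1B encode subunits of the histone chaperone CAF-1. CHAF1A was read 1760, 1341, 1425 and 859 times and was at -1.10 (from -1.22 to -0.98) with the combination, and CHAF1B was at -0.57.

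NBT alone had a smaller effect in the same direction. None of the 43 genes was called at the limit of 1, where 1.01% of the 15888 genes tested were called as lower and 1.6% as higher. At the limit of 0.5, 9 were lower (CDT1, MCM4, CLSPN, MCM10, MCM3, POLD1, LIG1, E2F2 and POLE), beside 4.31% of all genes tested, and CDC6 was higher, beside 4.94%. The interval lay below 0 for 34 genes (21.6% of all genes tested, 30.7% of those with at least 100 reads) and above 0 for CDC6, GINS3 and ORC6 (19.6% of all genes tested). The median log2 fold change was -0.31, and -0.01 over all genes tested.

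Trametinib alone gave the smallest effect on the set. Again none was called at the limit of 1 (2.15% of the 16197 genes tested were lower and 3.82% higher), and at 0.5 the genes CLSPN, MCM10 and UHRF1 were lower and 0 higher. That share of the 43 is close to the 5.67% of all genes that were lower, while 9.41% were higher. The interval lay below 0 for 23 genes (19.3% of all genes tested, 27.8% of those with at least 100 reads) and above 0 for TK1, RPA3, E2F2, RPA1 and RRM1 (28.3% and 37.8%). The median log2 fold change was -0.13, beside 0.08 over all genes tested. TMM scaling gave -0.21 beside 0.01, with 30 genes below 0 beyond counting error (24.6% of all genes tested) and TK1, RPA3 and RPA1 above 0 (22.0%).

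**Figure D3:**
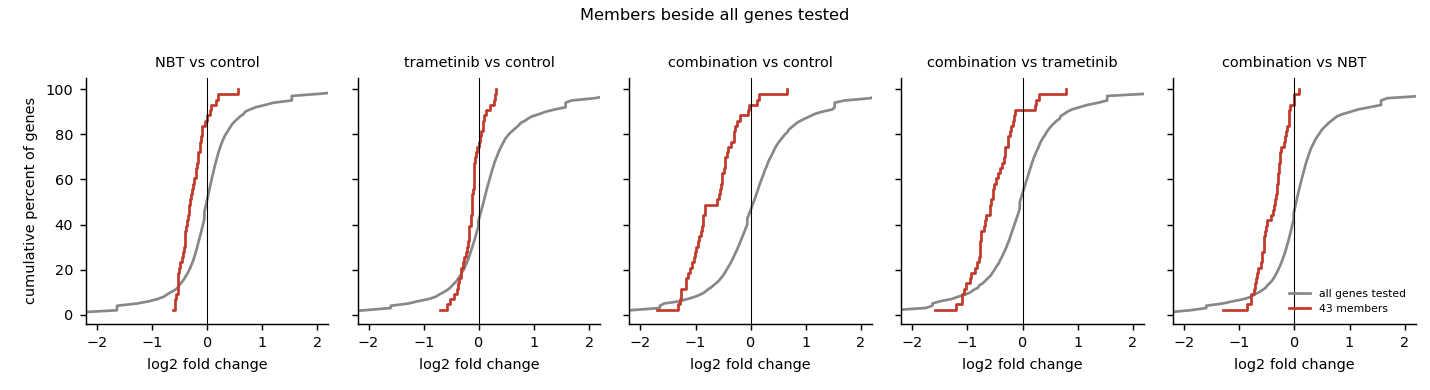
Cumulative percent of genes (vertical axis) up to each log2 fold change (horizontal axis) for the 43 genes and for all genes tested, in each of 5 comparisons between libraries. The line of the 43 genes lies left of that of all genes in its middle part in every panel, with medians of -0.31, -0.13, -0.62, -0.57 and -0.35 from left to right.

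Adding NBT to trametinib was read from the combination against the trametinib library. There 6 genes were called as lower at the limit of 1 (E2F1, PCNA, MCM6, E2F2, MCM4 and TYMS) and 0 as higher, beside 3.55% and 2.56% of the 16343 genes tested. At 0.5, 25 were lower and CDC6 was higher, beside 10.4% and 7.92%, and the median was -0.57 against -0.05 over all genes. The change with NBT in the absence of trametinib and in its presence comes from pairs that share no library. Across the 43 genes these values had a Pearson r of 0.84 and a Spearman rho of 0.81, and across 11367 genes with at least 50 reads in a library r was 0.68, where all points share the 4 libraries' scaling and genes are not independent replicates. In both pairs 33 of the 43 genes (76.7%, beside 22.2% of the 11367) were lower beyond counting error, CDC6, GINS3 and ORC6 were higher in both, and 0 went in opposite directions. Of the 11367 genes, 2159 were higher in both and 403 went in opposite directions, so opposite directions were rare among all genes too.

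Adding trametinib to NBT gave a smaller median change than adding NBT to trametinib. Against the NBT library, E2F1 was called as lower at the limit of 1, at -1.30 (from -1.49 to -1.12), and 0 genes as higher, beside 1.99% and 2.38% of the 16250 genes tested. At 0.5, 18 genes were lower, beside 5.03%, and 0 higher, beside 6.53%, with a median of -0.35 against 0.03 over all genes. The change with trametinib without NBT and with NBT had a Pearson r of 0.42 and a Spearman rho of 0.41 across the 43 genes, and an r of 0.67 across the 11367 genes. It was lower in both pairs for 20 genes (46.5%, beside 16.5%), and opposite for RPA1 and RRM1, the latter not with TMM scaling, where its value without NBT lay within counting error of 0. Among the 11367 genes, 607 went in opposite directions. TK1, higher with trametinib alone, stood at 0.00 (from -0.10 to 0.10) where trametinib was added to NBT. PCNA went from 0.07 without NBT to -0.78 (from -0.88 to -0.68) with it, and MCM6 from 0.03 to -0.73.

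**Figure D4:**
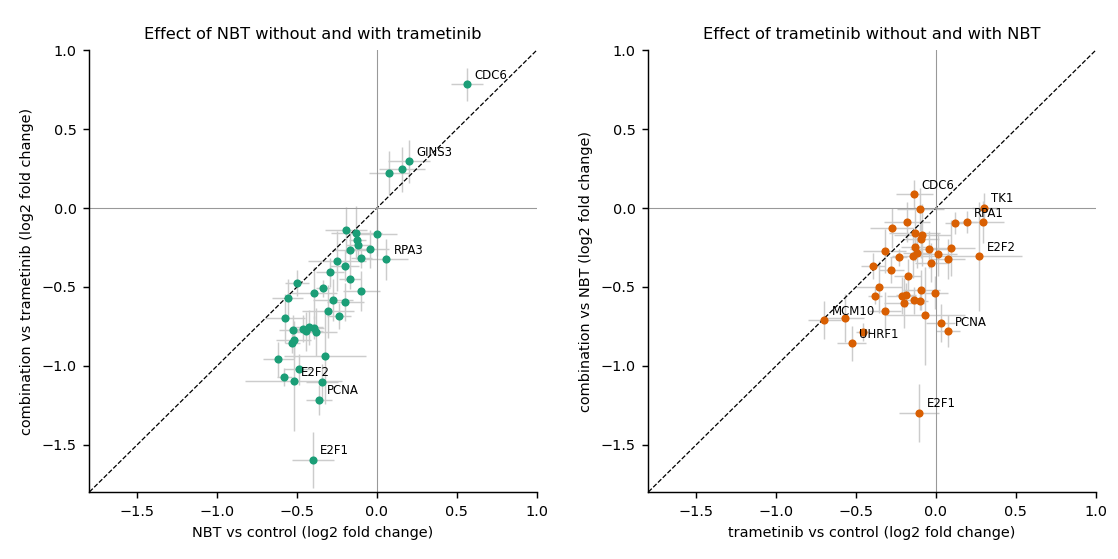
Log2 fold change of the 43 genes with NBT (left) and trametinib (right) in the absence (horizontal axis) and presence (vertical axis) of the other drug, with 95% counting intervals as bars and the dashed line marking equal values. Most points lie below the dashed line (37 of 43, beside 54.1% of 11367 genes), E2F1 the farthest, and CDC6 is at the upper right for NBT. The height of a gene above or below that line is the same in both panels, as it is the departure from additivity described next. The panels therefore give this count only once.

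The joint effect was measured as the log2 fold change of the combination minus the sum of the single-drug values, a departure from additivity on the log2 scale with a normal 95% counting interval from all 4 counts. It was below 0 beyond counting error for 29 of the 43 genes, beside 24.0% of the 11367 genes, and above 0 for CDC6 alone, beside 19.1%. Its median was -0.28, beside -0.03 over the 11367 genes. It was at or below -0.5 beyond counting error for 6 genes, beside 6.41% of the 11367, and for 0 genes at or above 0.5, beside 3.62%. The 6 were E2F1 (-1.19, from -1.41 to -0.97), PCNA (-0.85, from -0.98 to -0.73), MCM6 (-0.76, from -0.91 to -0.61), POLE2 (-0.61, from -1.0 to -0.23), E2F2 (-0.58, from -1.0 to -0.15) and TYMS (-0.53, from -0.66 to -0.40). E2F1 in the combination library was thus 56.3% below the level that additive log2 changes give, and PCNA 44.7%. Other genes with large falls were close to additive. MCM10 departed by -0.01 (from -0.17 to 0.14), CLSPN by -0.12 (from -0.32 to 0.07) and POLE by 0.03 (from -0.08 to 0.14). CDC6 departed by 0.22 (from 0.08 to 0.36). These counts of departures were made with library-sum scaling only, and another scaling shifts all genes by the same amount. Genes near a limit depend on it, such as TYMS, and MCM7 and FEN1 with intervals that ended at -0.003 and -0.001.

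**Figure D5:**
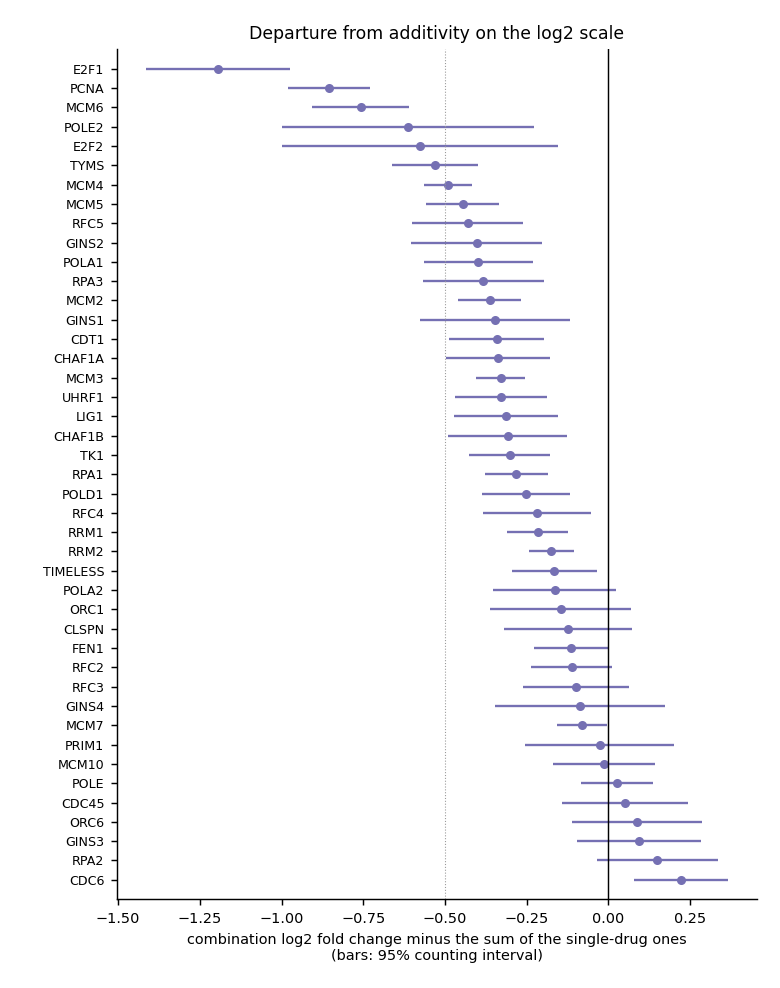
Departure from additivity of the 43 genes, the combination log2 fold change minus the sum of the single-drug ones (horizontal axis), with 95% counting intervals as bars, sorted from the lowest. E2F1, PCNA and MCM6 lie lowest, at -1.19, -0.85 and -0.76, and CDC6 highest, at 0.22.

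Related genes outside the set showed smaller medians with the combination, where the set and these lists were chosen with earlier results of these data known. At the limit of 0.5, 10.2% of all genes tested were called as lower and 12.5% as higher. Of 27 other replication genes, 11 were lower and 2 higher at this limit, with a median of -0.39. Among them ORC3, a further subunit of the origin recognition complex, was at 0.92, DNA2, a nuclease of Okazaki fragment processing, at -0.84 and POLD4, the small subunit of polymerase delta, at 0.80. Of 25 other nucleotide synthesis genes, 10 were lower and 0 higher, with a median of -0.39, led by CAD (-1.0), which starts pyrimidine synthesis, and followed by PRPS2 (-0.88) and PFAS (-0.82) of the purine path. Of 7 other chromatin copying genes, 4 were lower and 1 higher, with a median of -0.58, close to the -0.62 of the set. DNMT1, the maintenance methyltransferase that UHRF1 recruits, had 6564, 4869, 4164 and 2909 reads in the order of control, NBT, trametinib and combination (-1.24 with the combination), and the histone chaperone genes ASF1A and ASF1B went apart, at 1.44 and -0.75.

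Among 18 genes of the E2F and RB network and of S phase entry, the median with the combination was -0.46. At the limit of 0.5, 9 were lower and 4 higher, beside 10.2% and 12.5% of all genes tested. CCND1, which encodes cyclin D1, had 8472, 4693, 1315 and 323 reads, hence -0.90, -2.70 and -4.77 for NBT, trametinib and the combination. CDKN1A, which encodes the kinase inhibitor p21, had 550, 958, 1907 and 2294 reads, hence 0.75, 1.78 and 2.0. The repressor E2F8 moved with NBT, at 631, 253, 645 and 225 reads, and so did the related E2F7 in the opposite direction, at 1414, 2804, 899 and 2257 reads. E2F8 was at -1.37 with NBT and 0.02 with trametinib, and E2F7 at 0.94 and -0.67.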

How the data were processed

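RNA was extracted with TRIzol and sequenced on the BGISEQ-500 platform, 1 library per condition. The labels state bacterial rRNA depletion and random priming, and strand is not given in the sources used here. The submitters' processing notes name Bowtie2 2.2.5, RSEM 1.2.8 and hg38. The authors deposited expected counts (RSEM's estimated counts, not normalized), TPM values and FPKM values per gene and per transcript, and the FPKM values were not used. For 53.9% of genes and 25 of the 43 members a count was not whole in some library, so shared reads were divided. The counts were rounded and scaled to library sums.

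Genes with 1 count or more in a library of the pair were tested with an exact binomial test, a Poisson model after the study's methods. Departures from additivity needed 50 counts in a library. Alternatives were edgeR 4.0.16 TMM factors and its negative binomial exact test, DESeq2 1.42.0 size factors, TPM with a pseudocount of 0.1, 5 reads added, transcript counts summed per gene, a minimum of 10 counts and a log2 limit of 0.5. Steps were tested on simulated data. All 43 members were named, and of the other lists at most the 3 genes with the largest change in a comparison and 100 counts. CDKN2A, MTAP, VIM, the background over genes with at least 100 counts, and the order of levels and interval counts under other scalings were added after values were seen. Members and lists were chosen with earlier results of these data known. KRT19, PDGFRA and DCN were not analysed here, and 1 listed item is not reported here. Python 3.11.15, scipy 1.17.1 and R 4.3.3 were used.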

Additional observations from a re-analysis of the deposited data

Results flagged for a closer look

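The trametinib effect on RPA1, a subunit of the single-stranded DNA binding complex, had opposite signs without and with NBT. Its log2 fold change was 0.19 against the control library and -0.09 when the combination was set against the NBT library, a difference of -0.28. RRM1, the large subunit of ribonucleotide reductase, did likewise, with 0.12 without NBT and -0.10 with it, a difference of -0.22. Opposite signs beyond counting error were thus seen for 2 of the 43 genes, beside 607 of the 11367 genes with at least 50 reads in a library. These shares are alike, so opposite signs do not set the 43 genes apart. The difference for each gene equals its departure from additivity, and the 95% counting interval was from -0.38 to -0.18 for RPA1 and from -0.31 to -0.12 for RRM1. The intervals cover counting error only, and with 1 library per condition the difference was not tested against variation between cultures. TMM scaling gave trametinib effects without NBT of 0.12 for RPA1 and 0.05 for RRM1, the latter within counting error of 0.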

How the results depend on the processing

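No median of the 43 genes and no single-gene value beyond counting error changed direction in the settings run. Among values within counting error of 0, 8 changed sign in some setting, which were CHAF1B, MCM6, PCNA and POLA1 with trametinib, POLA2 and RPA3 with NBT, and ORC6 and TK1 in the combination against NBT. The medians ranged from -0.71 to -0.62 for the combination against control, from -0.37 to -0.30 for NBT, from -0.21 (TMM) to -0.13 for trametinib, from -0.58 to -0.53 for the combination against trametinib, from -0.38 to -0.34 for it against NBT, and from -0.28 to -0.21 for the departure from additivity. The counts at the log2 limit of 1 depended on the variation assumed between cultures, which was not measured. With a negative binomial test at an assumed coefficient of variation of 0.2, the combination against control called 2 genes (E2F1 and MCM3), the combination against trametinib 1 (E2F1) and the combination against NBT 0, and at 0.4 each of these gave 0. With the log2 limit of 0.5 the calls against control numbered 10 (NBT), 3 (trametinib) and 28 (combination), and those of the combination against trametinib and against NBT 26 and 18. Other scalings, pseudocounts and filters gave 11 to 13 calls for the combination, where POLE2 was lost with 5 reads added and GINS2 was gained with TMM, with DESeq2 size factors and with TPM. The same settings gave 5 to 6 calls for the combination against trametinib. Among values for single genes recomputed in these ways, 25 moved past their counting interval and 1265 did not. No paired analysis was possible because each condition is 1 library. Depth limits POLE2 and E2F2 most, the genes with the fewest reads.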

Other observations

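The deposited transcript counts split single genes among RefSeq transcripts, and 7 of the 43 genes have 1 transcript in the table. For 3 genes the share of a transcript moved by at least 50 percentage points between libraries. The first was ORC1, whose transcript NM_004153.4 held 56.23% of its reads in control cells, 30.56% after NBT, 62.4% after trametinib and 0% after both. POLA1 was the next, where the widest shift, of 56.88 points, was in a transcript not named here. Its most read transcript, XM_006724499.2, moved by less, at 47.24%, 41.48%, 42.48% and 72.18%. In POLE2 the transcript NM_001197331.2 held 34.5%, 0%, 64.48% and 44.71%. Such shares depend on how reads that match several transcripts were divided, and there is 1 library per condition, so no comparison was drawn from them. Summing the transcripts of each gene gave the same calls with the combination as the gene counts.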
